A study of Mus musculus with 2 samples.

Results

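RNA helicases and splicing factors were compared between RNA labelled as ovaries of mice homozygous (HOM) for the Y123F leptin receptor and RNA labelled as ovaries of wild type (WT) mice. A gene was a member if the symbol of its array probe began with Ddx or Dhx and a number, Sf3a or Sf3b, Srsf or Sfrs and a number, Hnrnp or Hnrp, Snrp, Luc7l or Mbnl. The rule used names only and found 100 genes of the 19057 named on the array, read by 227 of its 45281 probes. They were 46 helicases, 10 SR proteins, 20 hnRNPs, 9 SF3 subunits, 9 Snrp proteins and 6 genes of the Luc7l and Mbnl families.

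The HOM mice were C57BL/6 females in which the tyrosines at positions 985, 1077 and 1138 of the long leptin receptor, all encoded by exon 18, are replaced by phenylalanine in every cell of the body. The WT mice were C57BL/6 females of the same litters, and the study examined both at 12 weeks. RNA of several animals was pooled for each genotype, and each pool was read on 1 Illumina MouseWG-6 v2.0 array, a slide of beads that each carry a probe for 1 transcript. With 1 array per genotype there was no replicate error, so no difference below was tested, and every count rests on the size of a ratio.

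Splicing removes introns from pre-mRNA in the spliceosome, which is built on each intron from small nuclear ribonucleoproteins (snRNPs) and many other proteins. SR proteins mostly bind exons and promote the use of nearby splice sites, while hnRNPs coat the nascent transcript and often oppose that use. The DEAD box (Ddx) and DEAH box (Dhx) helicases spend ATP to unwind or remodel RNA, not only in the spliceosome but also in ribosome assembly, translation, decay and the sensing of viral RNA.

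A probe was called detected where the detection p-value deposited with it, set against negative control beads of the same array, was below 0.01. The HOM array had 15589 detected probes (34.4%) with a median signal of 99.2, and the WT array had 14902 (32.9%) with a median signal of 89.0. The HOM array was therefore the brighter one. Signals are given as deposited, with the background subtracted and no scaling between the arrays, whereas log2 HOM/WT is given after background correction and quantile normalization. The signs of a printed pair of signals and of its log2 HOM/WT can therefore differ, by an amount that depends on the signal. Over the 9817 detected genes the median log2 HOM/WT was 0.04, but 0.22 if the arrays were scaled to one median instead and 0.28 if they were not scaled. The tissue label was checked against cell type markers. Of 23 measured markers of oocytes, granulosa, theca and luteal cells, 19 were detected on neither array, the highest signal among all 23 was 49.3 on the HOM array and 21.6 on the WT array, and Star, the steroidogenic cholesterol carrier, was at 1.72 on the HOM array and 1.44 on the WT array. In contrast, 8 of 10 uterus and oviduct markers and 7 of 8 smooth muscle markers were detected on both arrays. The uterus and oviduct markers had a summed signal of 4963 on the HOM array and 4154 on the WT array and a median log2 HOM/WT of -0.36, between -1.09 for Hoxa11 and 1.45 for Ltf, with Ovgp1 at -0.95 and Wnt7a at -0.59. Of 6 leukocyte markers 5 were detected, with a summed signal of 6068 on the HOM array and 3126 on the WT array and a median log2 HOM/WT of 0.68, while Ptprc, which encodes the defining leukocyte antigen, was not detected. The part of these cells in the results below was not tested, and in pooled tissue fewer cells of a type and less RNA per cell cannot be told apart. Lepr itself was detected by neither of its probes, whereas the study reported LepR mRNA and protein in ovaries of both genotypes by other assays. The genotype labels were not checked on these arrays.

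Of the 100 members 82 were detected, 79 on both arrays, 2 on the HOM array only and 1 on the WT array only. Their median log2 HOM/WT was 0.07, beside 0.04 over all detected genes. Of the 82, 45 (54.9%) were above 0, beside 53.8% of all detected genes, and 37 were below. By a limit of 2-fold no member was higher in HOM RNA, beside 0.418% of all detected genes, and 3 members (3.66%) were lower, beside 1.49% of all detected genes: the helicase Ddx3x, the U1 snRNP-associated Luc7l2 and the splicing regulator Mbnl1. The gap between these lower shares depended on the processing. Without background correction they were 4.88% of members and 4.75% of all genes. In the authors' normalized values they were 4.88% and 4.76%, so the gap was nearly absent in both. It was kept under other scalings, at 2.44% beside 0.72% after median scaling and 2.44% beside 0.51% without scaling. At 1.5-fold, 4 members were higher beside 5.27% of all genes, and 11 members (13.4%) were lower beside 8.3% of all genes. The members next to the 2-fold limit were Mbnl1, which passed it at a log2 HOM/WT of -1.12, and Hnrnpul2 and Luc7l3, which did not, at -0.91 and -0.89.

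**Figure D1:**
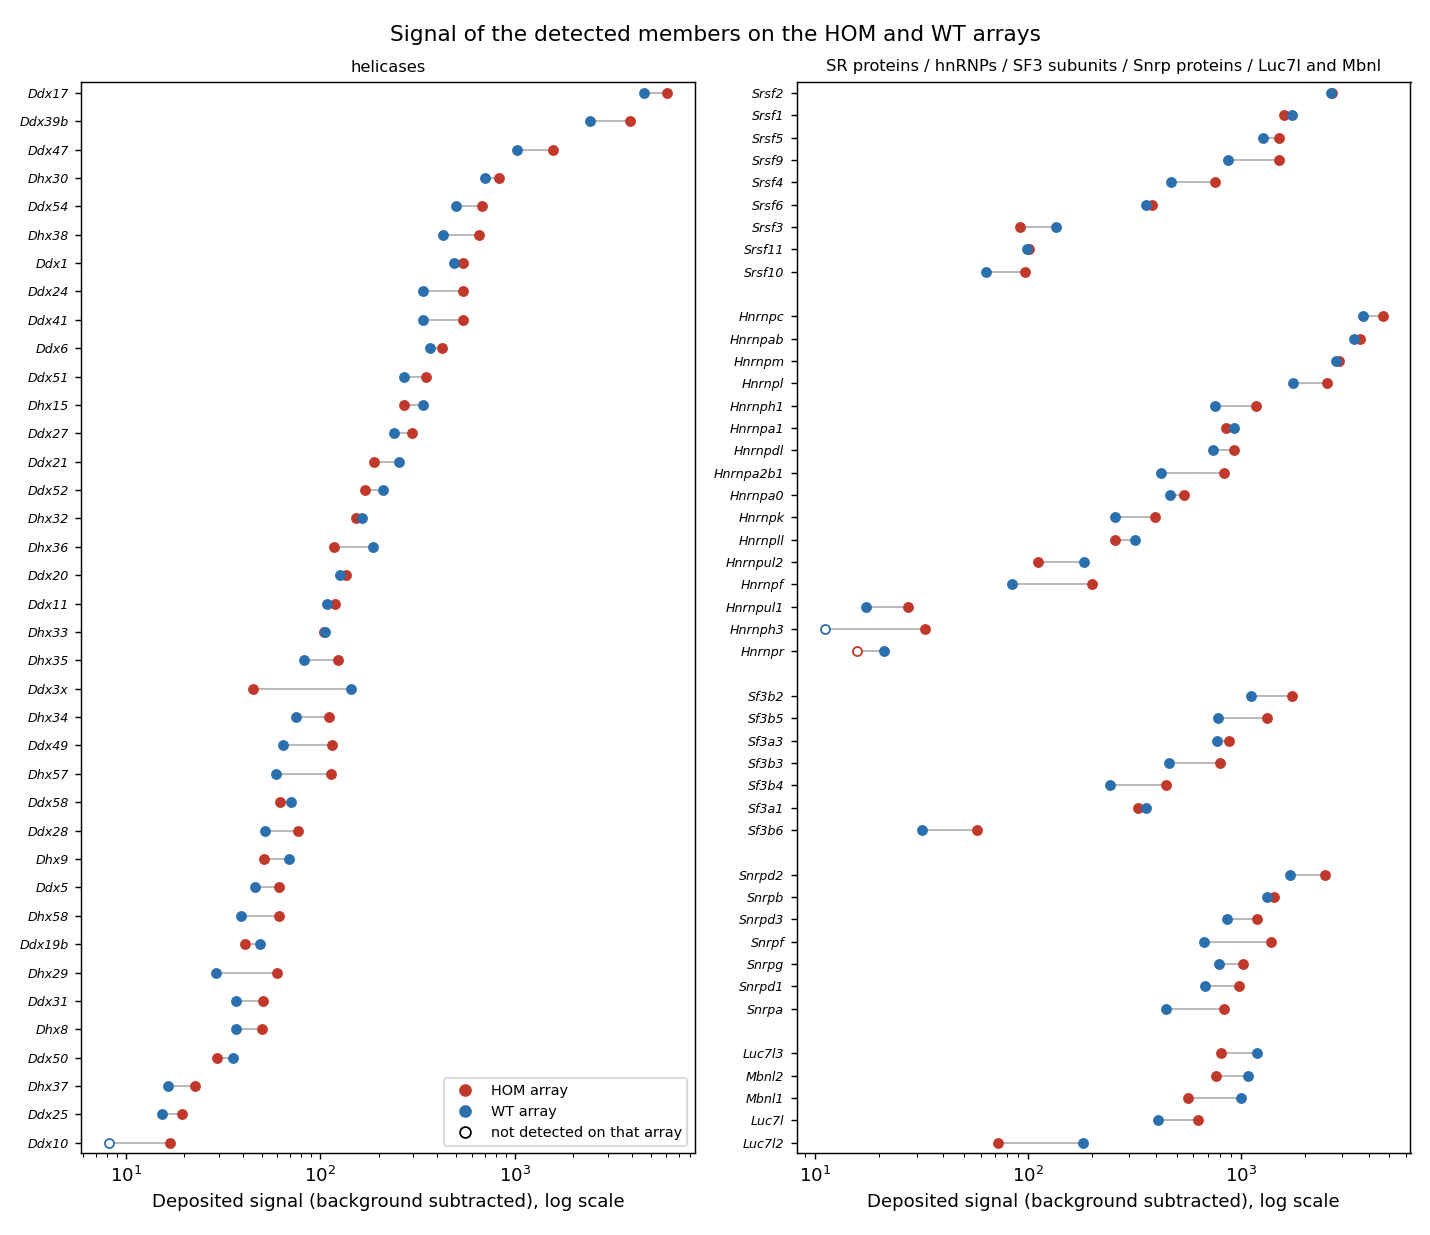
Deposited signal (log axis) of the 82 detected members, with the HOM array in red, the WT array in blue and open circles where the probe was not detected on that array; signals are to be compared within a gene, not between genes. Ddx3x (45.0 on the HOM array, 143 on the WT array), Luc7l2, Luc7l3, Mbnl1 and Mbnl2 had the red point to the left of the blue one, whereas the detected SF3B and Snrp genes had it to the right.

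The classes differed in where their members lay. The medians of log2 HOM/WT were 0.09 for the 38 detected helicases, -0.22 for the 9 SR proteins, 0.01 for the 16 hnRNPs, 0.43 for the 7 SF3 subunits, 0.20 for the 7 Snrp proteins and -0.89 for the 5 Luc7l and Mbnl genes. Helicases and hnRNPs were thus near the median of all genes. Relative to that median, the SR proteins and the Luc7l and Mbnl genes lay below in 10 of 10 ways of processing the same signals. The SF3 and Snrp genes lay above in all of them. These ways are not independent. Detection on both arrays, or at a p-value below 0.05, left the medians of these classes unchanged. Median scaling and no scaling differ by the same shift for every gene, so the count of 10 is no measure of certainty. The SR median itself was 0.03 after median scaling and 0.09 without scaling, so only its place below the other genes was kept, not its sign.

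**Figure D2:**
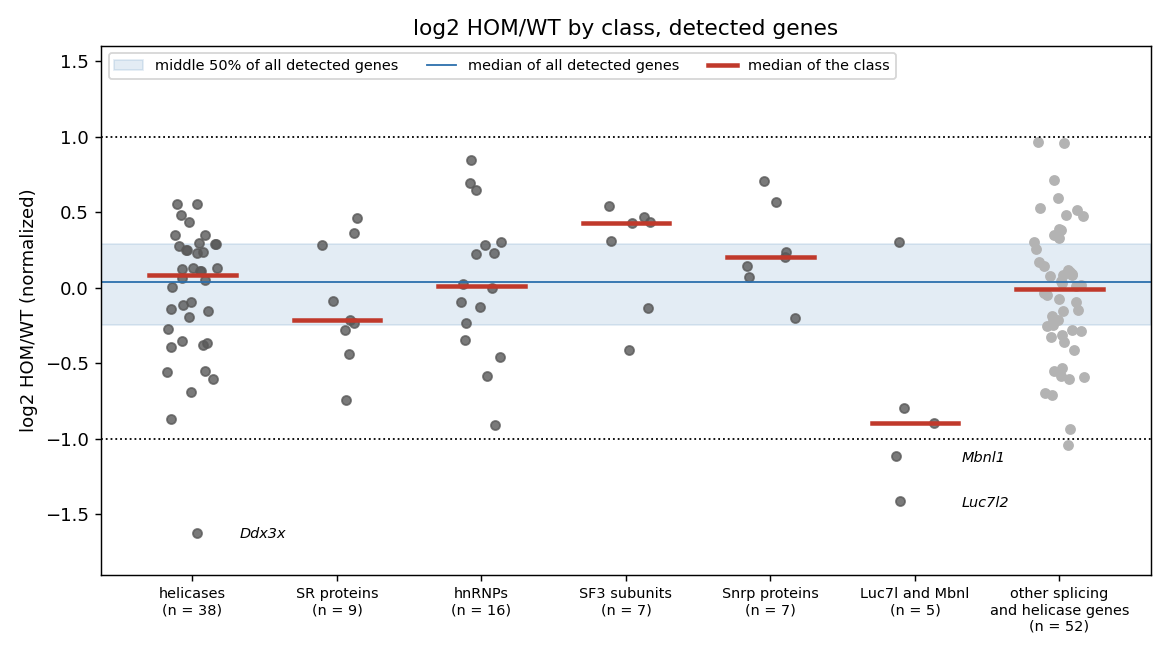
Normalized log2 HOM/WT of each detected member by class and of 52 other splicing and helicase genes, with class medians in red, the median and the middle 50% of all detected genes in blue, and 2-fold limits dotted. Ddx3x, Luc7l2 and Mbnl1 are the members below -1, and no member is above 1.

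Promoter sequences of 5 members past 1.5-fold are shown as the regions from which these transcripts start. They are 1 helicase, 1 SR protein, 1 Snrp protein and 2 of the Luc7l and Mbnl genes. All detected probes of Ddx3x, Srsf3, Luc7l3 and Mbnl2 ran the same way, while Snrpf was read by 1 probe. The genes were chosen after their values were seen, and others such as Hnrnpll met the same conditions. Sequences are RefSeq's on GRCm38.p6, from 250 bases before to 50 bases after the annotated start, 5′ to 3′ on the strand of the gene, and capitals mark the motif matches searched for. Ddx3x lies at chrX:13280772-13281071 (+), Srsf3 at chr17:29032410-29032709 (+), Luc7l3 at chr11:94321914-94322213 (-), Mbnl2 at chr14:120275419-120275718 (+) and Snrpf at chr10:93589609-93589908 (-).
Ddx3x: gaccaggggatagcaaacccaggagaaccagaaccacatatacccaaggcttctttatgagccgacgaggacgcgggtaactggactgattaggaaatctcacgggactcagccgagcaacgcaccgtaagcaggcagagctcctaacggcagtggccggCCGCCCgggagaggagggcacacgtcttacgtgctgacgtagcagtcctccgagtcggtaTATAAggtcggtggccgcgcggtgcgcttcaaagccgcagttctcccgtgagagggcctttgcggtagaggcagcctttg
Srsf3: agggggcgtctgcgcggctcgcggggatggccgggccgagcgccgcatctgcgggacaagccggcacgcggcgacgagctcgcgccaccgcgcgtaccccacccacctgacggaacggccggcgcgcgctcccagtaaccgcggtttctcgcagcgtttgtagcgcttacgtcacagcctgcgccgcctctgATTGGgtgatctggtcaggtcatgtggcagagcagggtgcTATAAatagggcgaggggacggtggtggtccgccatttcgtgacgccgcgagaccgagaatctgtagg
Luc7l3: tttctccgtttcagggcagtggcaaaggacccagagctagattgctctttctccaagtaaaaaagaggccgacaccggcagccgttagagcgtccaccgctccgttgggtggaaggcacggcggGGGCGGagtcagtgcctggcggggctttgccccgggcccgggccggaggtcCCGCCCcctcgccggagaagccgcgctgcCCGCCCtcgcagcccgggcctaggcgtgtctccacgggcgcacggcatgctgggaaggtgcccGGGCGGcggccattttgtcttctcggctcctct
Mbnl2: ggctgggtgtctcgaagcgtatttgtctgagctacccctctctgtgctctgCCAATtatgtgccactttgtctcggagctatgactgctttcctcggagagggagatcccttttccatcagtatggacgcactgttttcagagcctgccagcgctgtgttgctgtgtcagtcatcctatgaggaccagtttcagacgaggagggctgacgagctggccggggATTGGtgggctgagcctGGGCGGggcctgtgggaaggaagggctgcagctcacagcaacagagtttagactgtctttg
Snrpf: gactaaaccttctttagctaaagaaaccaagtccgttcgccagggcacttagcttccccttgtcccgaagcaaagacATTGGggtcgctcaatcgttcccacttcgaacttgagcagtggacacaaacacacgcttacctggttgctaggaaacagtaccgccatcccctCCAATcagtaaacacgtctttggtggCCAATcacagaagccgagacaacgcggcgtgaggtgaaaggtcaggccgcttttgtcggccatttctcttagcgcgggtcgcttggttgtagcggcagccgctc

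The motifs were searched on both strands, with no overlaps between different motifs in the sequences shown. Of 32851 listed mouse promoters of this length, TATAA (the TATA box) was found in 24.9%, CCAAT in 37.4%, GGGCGG (the GC box) in 35.7%, TTCNNNGAA (bound by STAT factors, which leptin signalling activates) in 8.3%, TGACGTCA (the cAMP response element) in 1.79% and CACGTG (an E box) in 7.15%. For 88 of the 100 members a promoter was listed, and their 114 promoters held these motifs in 18.4%, 46.5%, 64.9%, 9.65%, 6.14% and 13.2%, in the same order. The median number of CpG was 25 in members' promoters and 7 in all promoters. Neither Ddx3x nor any of the other 4 sequences held TTCNNNGAA, which says only that these letters are not in this window.

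Helicases of translation and mRNA decay lay on both sides of 0. Ddx3x, an X-linked DEAD box helicase that helps to start translation on structured mRNAs, had signals of 45.0 on the HOM array and 143 on the WT array, a HOM/WT ratio of 0.325 and a log2 HOM/WT of -1.62. Its other probe read 38.4 on the HOM array and 73.1 on the WT array, a log2 HOM/WT of -0.92, so both probes were lower on the HOM array. Ddx3x was the only member past 3-fold, and it was at -1.45 after median scaling and -1.39 without scaling. No named probe read its Y-linked homologue Ddx3y. Dhx36, which unwinds G-quadruplexes, was at 118 on the HOM array and 185 on the WT array (log2 HOM/WT -0.87), read by 1 probe. Dhx29, which helps ribosomes to scan structured leaders, ran the other way, with 59.5 on the HOM array and 29.0 on the WT array (0.56). Ddx6, of mRNA decay and P-bodies, had 423 on the HOM array and 366 on the WT array, which gave -0.11 after quantile normalization but 0.20 without scaling. The 4 genes of this role had a median of -0.49, with 1 above 0, beside 53.8% of all detected genes.

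Of 10 measured helicases of the spliceosome and mRNA export, 7 were detected. Their log2 HOM/WT had a median of 0.25, and 5 were above 0, beside 53.8% of all detected genes. Ddx39b, which loads onto mRNA during splicing and hands it to export, had signals of 3898 on the HOM array and 2430.1 on the WT array (log2 HOM/WT 0.44), while its other probe gave 0.07. Dhx38, of the second splicing step, had 653 on the HOM array and 427 on the WT array (0.29), and Ddx41 had 539 on the HOM array and 338 on the WT array (0.35). Dhx15, which takes the spent spliceosome apart, was the exception at 1.5-fold. Its signal was 269 on the HOM array and 337 on the WT array (-0.61), but a second probe, for another transcript record, read 230.1 on the HOM array and 166 on the WT array (0.16). The probes of Dhx15 therefore lay on opposite sides of 0.

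Of 14 measured helicases of ribosome biogenesis 12 were detected. The median of their log2 HOM/WT was 0.12, and 9 were above 0, beside 53.8% of all detected genes. Ddx49 was at 115 on the HOM array and 63.9 on the WT array (0.48, with another probe at -0.04), Ddx47 was at 1577 on the HOM array and 1022 on the WT array (0.29) and Ddx24 was at 539 on the HOM array and 337 on the WT array (0.35, with others at 0.38 and -0.17). In contrast, Ddx21, a nucleolar helicase of rRNA processing, was at 188 on the HOM array and 255 on the WT array (-0.69). Its other probe gave 0.06, and the mean over both was -0.32. Ddx52 was at 169.8 on the HOM array and 210.2 on the WT array (-0.56). Ddx10 was detected on the HOM array only, at 16.8 against 8.20 on the WT array, which is near the dimmest detected signals of 15.9 on the HOM array and 15.1 on the WT array.

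The helicases that also act as transcription coregulators lay on both sides of 0. Ddx17 had signals of 6045 on the HOM array and 4621 on the WT array (log2 HOM/WT 0.23), and its paralogue Ddx5 had 61.6 on the HOM array and 46.3 on the WT array (0.11). Dhx9, or RNA helicase A, had 51.1 on the HOM array and 69.2 on the WT array (-0.55). Ddx5 and Dhx9 were each read by 1 detected probe of 3. The sensors of viral RNA were also split: Ddx58, which encodes RIG-I, was at 62.4 on the HOM array and 70.7 on the WT array (-0.36), and Dhx58, which encodes LGP2, was at 61.3 on the HOM array and 38.9 on the WT array (0.30), with its 3 detected probes between 0.30 and 0.46. Ddx4, the germ cell helicase Vasa that marks oocytes, was detected by none of its 3 probes, the brightest reading 13.2 on the HOM array and 12.6 on the WT array. Ddx25, known from the testis, was close to background at 19.5 on the HOM array and 15.3 on the WT array. Of the helicases with no role in the list used, 8 were detected with a median of -0.12, and the furthest from 0 was Dhx57, at 113 on the HOM array and 59.1 on the WT array (0.55). By family, the 24 detected Ddx genes had a median of 0.06 and the 14 Dhx genes 0.12. Besides Ddx4, those detected on neither array were Ddx39a, Ddx42, Ddx55, Ddx56, Ddx59, Dhx16 and Dhx40.

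SR proteins lay lower than helicases and hnRNPs, with 3 of 9 detected genes above 0, beside 53.8% of all detected genes. None was at least 1.5-fold higher, beside 5.27% of all detected genes, and 1 was lower, beside 8.3%. Srsf3, the smallest SR protein, was the one at least 1.5-fold lower, with signals of 91.8 on the HOM array and 136 on the WT array and a log2 HOM/WT of -0.75. Its second probe read 86.8 on the HOM array and 129 on the WT array and also gave -0.75, the closest match among the members with several detected probes, and without scaling the value was -0.50. Srsf1, the founding member of the family, had 1597 on the HOM array and 1745 on the WT array (-0.44), and its other probe gave -0.35. Both lay below 0 under the 3 scalings.

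Srsf2, which marks nuclear speckles, depended on the probe. One probe read 2684 on the HOM array and 2672 on the WT array (log2 HOM/WT -0.28), and the other read 295 on the HOM array and 829 on the WT array (-1.74). Their mean, -1.01, put Srsf2 past 2-fold. Srsf6 had 385 on the HOM array and 359.8 on the WT array (-0.22, but 0.09 without scaling), Srsf11 had 101 on the HOM array and 98.9 on the WT array (-0.23, with 3 probes between -0.74 and -0.10), and Srsf5 had 1508 on the HOM array and 1278 on the WT array (-0.09) with a second probe at 0.33. Without scaling the brightest probes of Srsf2, Srsf5, Srsf6 and Srsf11 were all above 0. On the other side of 0, Srsf9 had 1515 on the HOM array and 869 on the WT array (0.46), Srsf4 had 755 on the HOM array and 470.4 on the WT array (0.36) and Srsf10 had 96.7 on the HOM array and 63.6 on the WT array (0.28, with others at 0.25 and -0.23). Srsf12 was not detected. Of 7 SR genes with several detected probes, 5 (71.4%) had all of them below 0, beside 23.4% of all such genes. None had all of them above, beside 34.0% of all such genes. Without scaling, only Srsf1 and Srsf3 of the 5 kept all detected probes below 0.

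The hnRNPs were split evenly, with 8 of 16 detected genes above 0, beside 53.8% of all detected genes. At 1.5-fold 3 of the 16 were higher and 2 lower, beside 5.27% and 8.3% of all detected genes. Among the 3, Hnrnph3 passed by its printed ratio only, because the WT array did not detect it. Hnrnpf, which binds G-rich tracts, had signals of 199.5 on the HOM array and 84.6 on the WT array, a ratio of 1.80 and the highest log2 HOM/WT of the members, 0.84. It reached 1.04 after median scaling and 1.10 without scaling, but only 1 of its 2 probes was detected. Its relative Hnrnph1 was read by 5 detected probes, all above 0, between 0.06 and 0.44, the brightest at 1175 on the HOM array and 754 on the WT array (0.30). Hnrnph3, of the same subfamily, was detected on the HOM array only, at 32.9 against 11.1 on the WT array, which made it at least 1.41-fold higher. This bound sets the HOM value against the dimmest detected probe of the WT array on the normalized scale. Hnrnph2, also of this subfamily, was not detected.

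Hnrnpa2b1, an hnRNP of splicing and RNA transport, had a log2 HOM/WT of 0.64 from signals of 835 on the HOM array and 422 on the WT array. Its other detected probe, annotated to a different transcript record, read 37.9 on the HOM array and 67.6 on the WT array (-0.84), so the gene was past 1.5-fold in both directions. Hnrnpa1, its close relative, was at 851 on the HOM array and 934 on the WT array (-0.46), whereas 2 probes annotated to another transcript record gave 0.08 and 0.39. Hnrnpdl also had probes on both sides, at -0.68, -0.00 and 0.54, but all of these are annotated to the same transcript record.

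Lower on the HOM array were Hnrnpul2, a nuclear hnRNP U relative, and Hnrnpll, known for exon skipping in Ptprc transcripts of lymphocytes. Hnrnpul2 had 112 on the HOM array and 183 on the WT array (log2 HOM/WT -0.91), with 1 of 3 probes detected. Hnrnpll had 256 on the HOM array and 318 on the WT array (-0.59), and its other probe had 48.1 on the HOM array and 121 on the WT array (-1.34), so both were lower there, while leukocyte markers were higher on that array. Hnrnpr was detected on the WT array only, at 15.8 on the HOM array against 21.2 on the WT array, at least 1.27-fold lower. Of the other hnRNPs, Hnrnpc, which binds U-rich tracts, was at 4647 on the HOM array and 3757 on the WT array (0.03, with another probe at -0.45), Hnrnpab was at 3651 on the HOM array and 3412 on the WT array (-0.13) and Hnrnpk was at 394 on the HOM array and 258 on the WT array (0.28, with another probe at -0.30). Hnrnpl gave 0.22 and Hnrnpul1 0.23. Hnrnpa0 gave -0.09, with another probe at 0.53, and Hnrnpm gave -0.23, with others at -0.15 and 0.17. Without scaling the brightest probes of Hnrnpa0, Hnrnpab, Hnrnpdl and Hnrnpm were above 0. Hnrnpa3, Hnrnpd and Hnrnpu were not detected, Hnrnpu at 15.4 on the HOM array and 3.32 on the WT array and Hnrnpd at 11.5 on the HOM array and 13.2 on the WT array.

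The SF3A and SF3B complexes are parts of the U2 snRNP that hold it at the branch point of the intron. All 5 detected SF3B genes were above 0, between 0.31 and 0.54, beside 53.8% of all detected genes above 0. None was past 1.5-fold, beside 5.27% of all detected genes at least 1.5-fold higher. Sf3b4 had signals of 448 on the HOM array and 243 on the WT array (log2 HOM/WT 0.54), Sf3b3 had 800.0 on the HOM array and 459 on the WT array (0.47) and Sf3b5 had 1326 on the HOM array and 783 on the WT array (0.43), with its second probe at 0.30. Each of these was higher on the HOM array by an amount beyond the middle 50% of all genes, which ended at 0.29. Sf3b2 was at 1742 on the HOM array and 1124 on the WT array (0.31) and Sf3b6, which contacts the branch point, was at 57.4 on the HOM array and 31.8 on the WT array (0.43), although a probe of Sf3b6 detected on the WT array only ran the other way (-0.35). The largest subunit, Sf3b1, was not detected by its 1 probe, which read below background on both arrays. The SF3A genes lay lower than SF3B: Sf3a1 was at 329 on the HOM array and 357 on the WT array (-0.42) with a dim second probe at 0.30, Sf3a3 was at 879.7 on the HOM array and 772 on the WT array (-0.13, and 0.19 without scaling), and Sf3a2 was not detected.

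The Snrp genes encode the Sm ring that every spliceosomal snRNP except U6 carries, and proteins particular to U1 and U2. Of 7 detected genes 6 were above 0, beside 53.8% of all detected genes, and 1 was at least 1.5-fold higher, beside 5.27%. Snrpf, of the Sm ring, was the one past 1.5-fold, with 1384 on the HOM array and 671 on the WT array, a log2 HOM/WT of 0.70 that reached 1.03 without scaling. Snrpa, a U1 protein, had 831 on the HOM array and 443 on the WT array (0.57), and its second probe gave 0.07. The other Sm genes were closer to the median of all genes. Snrpd2 was at 2495 on the HOM array and 1697 on the WT array (0.24), Snrpd1 was at 977 on the HOM array and 680.2 on the WT array (0.20), and Snrpd3 and Snrpg gave 0.14 and 0.07. Snrpb was at 1439.9 on the HOM array and 1325 on the WT array, which gave -0.20 after quantile normalization and 0.12 without scaling, while its other probes gave 0.48 and 0.05. By the brightest probes Snrpf and Snrpb were furthest apart among the Sm genes. However, the mean over the detected probes of Snrpb was 0.11, and Snrpf was read by 1 probe. Snrpe and the U2 gene Snrpb2 were not detected. No probe carried the symbol Snrpn, or Snrp70, the older symbol of Snrnp70.

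The yeast counterpart of the Luc7l family is part of the U1 snRNP. The Mbnl family regulates exons in pre-mRNA and is sequestered by CUG repeats in myotonic dystrophy. Together these families held 4 of the 11 members that were at least 1.5-fold lower. These were 4 of their 5 detected genes, beside 8.3% of all detected genes. This count rests on the brightest probe of each gene. As the mean over detected probes, Luc7l3 (-0.80) and Mbnl2 (-0.99) passed 1.5-fold, but Luc7l2 (-0.47) and Mbnl1 (-0.44) did not. The median of the 5 genes was then -0.47 in place of -0.89. Luc7l2 had signals of 72.1 on the HOM array and 181 on the WT array, a ratio of 0.375 and a log2 HOM/WT of -1.41. A second Luc7l2 probe with nearly the same mean signal read 164 on the HOM array and 83.1 on the WT array (0.60), and another read 34.4 on the HOM array and 50.5 on the WT array (-0.60). All 3 are annotated to the same transcript record, and their mean was -0.47, so the call of Luc7l2 rests on the choice of probe. Luc7l3 was at 806 on the HOM array and 1197 on the WT array (-0.89), and its other probes, at 610.3 on the HOM array against 1124 on the WT array and at 848 on the HOM array against 852 on the WT array, gave -1.17 and -0.32. All probes of Luc7l3 were thus on one side. Luc7l was on the other, at 627 on the HOM array and 407 on the WT array (0.30), with a second probe at 0.37.

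Mbnl1, a muscleblind gene known from that disease, had 568 on the HOM array and 1005 on the WT array, a ratio of 0.462 and a log2 HOM/WT of -1.12. It did not pass 2-fold after median scaling (-0.87) or without scaling (-0.81). Another Mbnl1 probe, annotated to a different transcript record, was detected on the HOM array only, at 21.1 against 12.7 on the WT array. Mbnl2 had 769 on the HOM array and 1082 on the WT array (-0.80), and its other probe had 168 on the HOM array and 327 on the WT array (-1.19). Mbnl3 was not detected. The 7 detected smooth muscle markers had a median of -0.05 beside these values, between -1.02 for Myocd, the coactivator of smooth muscle genes, and 0.50 for Smtn. Their part in the Mbnl values was not tested.

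Probes of one gene gave the only spread within genes in these data. It mixes measurement error with any difference between the transcripts that the probes read, and these were not separated. Over 3225 genes with several detected probes, the SD of log2 HOM/WT within a gene was 0.33. For the 40 such members it was 0.45, and the probes lay more than 1 apart in 5 of them (12.5%), beside 5.49% of all such genes. These were Luc7l2 at 2.02, Hnrnpa2b1 at 1.48, Srsf2 at 1.46, Mbnl1 at 1.35 and Hnrnpdl at 1.21. Probes were on both sides of 0 in 19 members (47.5%) and in 42.3% of all such genes, and past 1.5-fold in both directions in 2 members, Luc7l2 and Hnrnpa2b1, and in 0.558% of all such genes. All detected probes were below 0 in 11 members (27.5%), beside 23.4% of all such genes, and above 0 in 10 members (25%), beside 34.0% of all such genes. Probe by probe, 7 of 136 detected probes of members were at least 2-fold lower (5.15%, beside 1.51% of all detected named probes) and 0 were at least 2-fold higher (0.472% of all). Of these 7, 4 read Luc7l or Mbnl genes and the others read Ddx3x, Srsf2 and Hnrnpll.

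**Figure D3:**
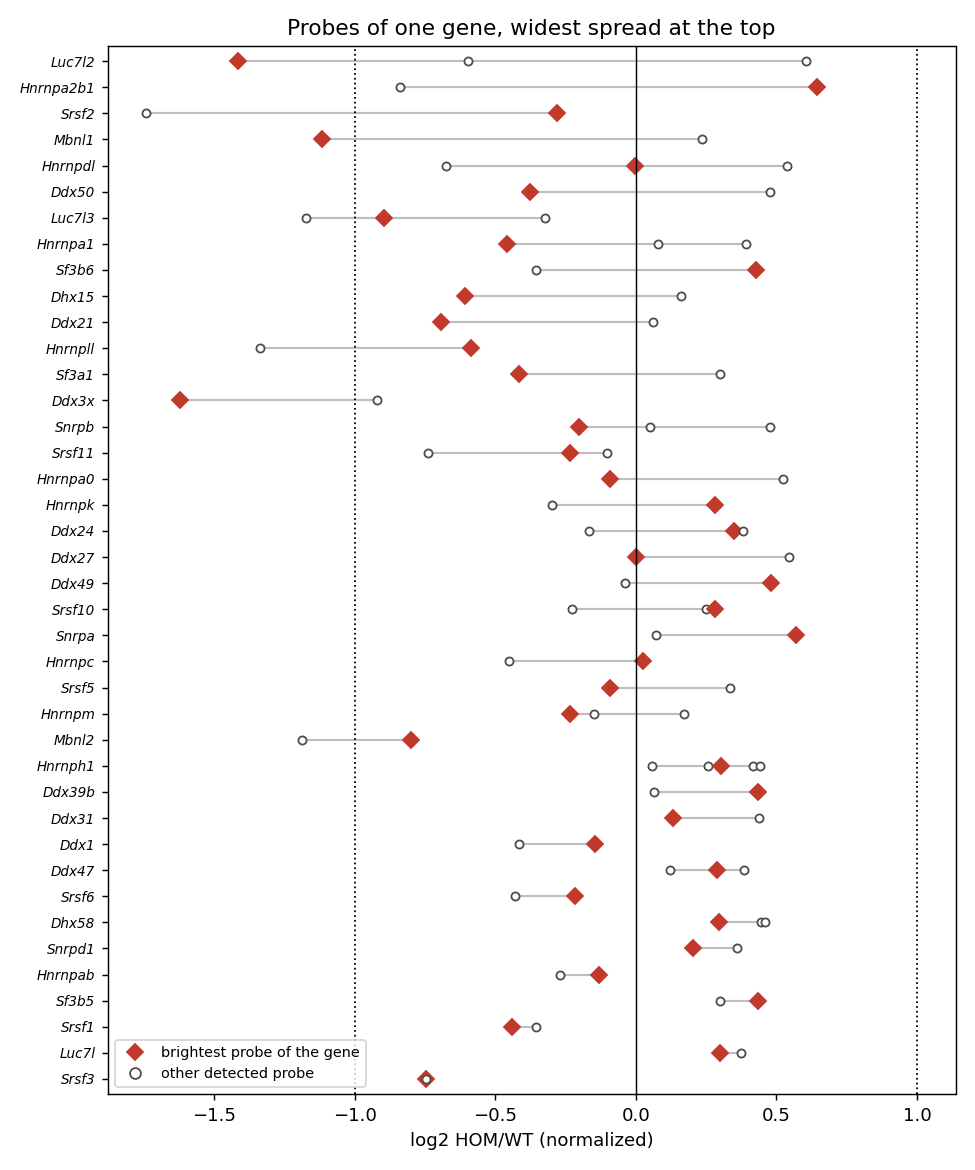
Normalized log2 HOM/WT of each detected probe of the 40 members with several detected probes, with the gene's brightest probe as a red diamond, its other probes as open circles and the 2-fold limits dotted. Luc7l2 spans 2.02 at the top and the probes of Srsf3 coincide at the bottom; both probes of Ddx3x, Mbnl2, Hnrnpll and Srsf3 lie below 0.

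The members' median was not the same at every signal. Those with a mean signal under 50 had a median of 0.13 (12 genes), those between 50 and 200 had -0.21 (22 genes), those between 200 and 1000 had 0.03 (30 genes) and those above had 0.18 (18 genes), while all detected genes lay between 0.04 and 0.05 in every range. The range between 50 and 200 holds Ddx3x, Luc7l2, Srsf3, Dhx36 and Hnrnpul2, and also Hnrnpf.

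A list of 65 other splicing factors and RNA helicases, whose symbols the rule does not match, was set beside the members. Of 59 measured 52 were detected. The median of their log2 HOM/WT was -0.01, and 26 were above 0, beside 53.8% of all detected genes. At 1.5-fold, 4 of the 52 were higher and 6 lower, beside 5.27% and 8.3% of all detected genes. The higher ones were U2af2, Sf1, Rnps1 (0.59) and Rbm39 (0.71), the last detected on the HOM array only. Of these, Sf1 recognises the branch point and U2af2 the tract after it, before the U2 snRNP binds. U2af2, the large U2AF subunit, had 184 on the HOM array and 71.5 on the WT array (0.96), and Sf1, the branch point binding protein, had 353 on the HOM array and 139.5 on the WT array (0.96), each just under 2-fold. Other genes above 0 did not pass 1.5-fold, among them Son at 0.52. U2af1, the small subunit, had 193 on the HOM array and 108 on the WT array (0.48). Snrnp70, a U1 protein, had 359 on the HOM array and 206 on the WT array (0.48). Prpf19 of the catalytic spliceosome had 2273 on the HOM array and 1259 on the WT array (0.53). In contrast, Prpf8 and the helicase Snrnp200, at the centre of the spliceosome, gave 0.14 and 0.02.

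On the lower side of that list, Eif4a2, a DEAD box helicase of translation initiation without a Ddx symbol, had 2421 on the HOM array and 4164 on the WT array (log2 HOM/WT -1.04), and it did not pass 2-fold without scaling (-0.78) or as the mean of its probes (-0.46). Its paralogue Eif4a1 had 5422 on the HOM array and 4404 on the WT array (0.12). Celf2, whose protein often opposes Mbnl on shared exons, had 256 on the HOM array and 411 on the WT array (-0.94, and -0.40 as the mean of its probes). Rbm8a gave -0.71. Cdc5l and Bcas2, which act with Prpf19, gave -0.70 and -0.59. Clk4, a kinase of SR proteins, had 842 on the HOM array and 1024 on the WT array (-0.61).

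**Figure D4:**
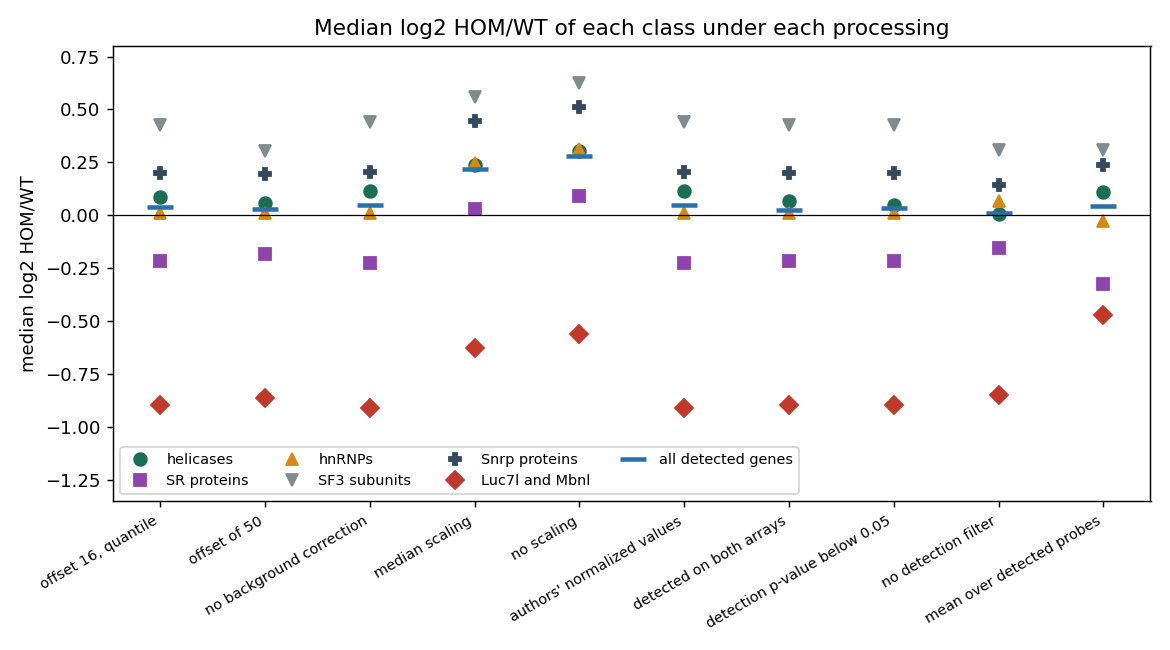
Median log2 HOM/WT of each class under 10 ways of processing, with the median of all detected genes as a blue bar. SF3 and Snrp genes lie above the blue bar and SR proteins and Luc7l and Mbnl genes below it throughout, while the SR median is 0.03 after median scaling, 0.09 without scaling and below 0 elsewhere.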

How the data were processed

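The deposited table held background-subtracted bead intensities (signals) of both arrays that the authors had not normalized between arrays, and a detection p-value per probe that the authors' software computed from negative control beads. The submitters' processing notes name GenomeStudio, while the study's methods name BeadStudio and robust multichip analysis, and the version is not given in the sources used here. The authors deposited a second table of intensities as well. Quantile normalization of the first table without logarithms gave its values to within 1.57, and it served as an alternative.

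Of 45281 probes, 34885 carried 1 gene symbol in the platform annotation, 18 carried several and 10378 were not listed and stayed out of gene results. The probe with the highest mean signal stood for a gene. Signals were corrected with limma 3.58.1 in R 4.3.3 (normexp from detection p-values), with an offset of 16, taken to log2 and quantile normalized. The offset understates ratios of dim probes. The normalization was tested on simulated data, made without a difference in brightness between the arrays. The deposited arrays did differ in brightness, so that test does not bear on the choice of scaling. A gene counted as detected below a p-value of 0.01 on at least 1 array, and as higher or lower when its log2 HOM/WT lay 1 or more from 0. Where only 1 array detected a probe, the bound sets it against the dimmest detected signal of the other. The number of arrays limits the precision, and no p-value for a difference can be had.

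Genes named were all members past 2-fold, the 6 with the largest absolute log2 HOM/WT and the 2 brightest of each class, and a fixed list of well-known members. Others were named after their values were seen. Members, gene lists and roles were chosen with earlier results of these data known, so their pattern is a description. Alternatives covered the offset, no background correction, median scaling, no scaling, the authors' normalized values, 3 detection filters, the mean over detected probes and limits of 1.5-fold and 3-fold.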

Additional observations from a re-analysis of the deposited data

How the results depend on the processing

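No paired analysis was possible because each genotype had 1 array, and for the same reason no replicate could be left out. The 3 members at least 2-fold lower became 2 after median scaling and without scaling (Ddx3x and Luc7l2), 2 as the mean over detected probes (Ddx3x and Srsf2) and 4 without background correction and in the authors' normalized values (Hnrnpul2 added); 11 passed 1.5-fold and 1 passed 3-fold. The 0 members at least 2-fold higher became 1 without background correction and in the authors' values (Hnrnph3), 1 after median scaling (Hnrnpf), 2 without scaling (Hnrnpf and Snrpf) and 4 at 1.5-fold.

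Over all genes, 41 were at least 2-fold higher and 146 lower. These became 4 and 48 with an offset of 50, 367 and 466 without background correction, 367 and 467 in the authors' values, 100 and 71 after median scaling, 154 and 50 without scaling, 517 and 815 at 1.5-fold, and 0 and 8 at 3-fold. The lower share of these calls was 78.1%, but 41.5% after median scaling and 24.5% without scaling. Median scaling put the class medians at 0.24 for helicases, 0.028 for SR proteins and 0.25 for hnRNPs, and no scaling put them at 0.30, 0.093 and 0.31, so the SR median changed sign, and without a detection filter the helicase median was 0.0058. For single named genes 412 values moved by less than the within-gene probe SD of 0.33 and 19 by more, 11 of them as the mean over probes. A detection filter cannot move the value of a single gene. Nor can the mean over probes where 1 probe was detected. The 412 include all such values, so they overstate how stable single genes were. No member past 2-fold changed sign, but 15 members below 0 lay above 0 without scaling. Signal over background limited the 18 undetected members, and dim members such as Ddx10 and Ddx25.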
